A study of Mus musculus with 26 samples.

Results

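Sox9, Sox5, Sox6, Acan, Comp, Chad, Matn3, Matn4, Hapln1 and Cnmd are genes of cartilage, and their RNA was followed across 18 RNA-seq libraries of mouse osteoblasts, the bone-forming cells, which were taken from the femur and grown in culture. They were chosen by name, 3 transcription factors and 7 matrix genes that are not collagens. They are 10 of the 26264 gene symbols in the deposited count table, and all 10 passed the filter on low counts that left 16566 genes.

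CKO-OLD and CKO-YOUNG osteoblasts came from Kdm2bfl/fl mice with Ocn-cre and the Ai14 reporter, in which the CxxC domain of Kdm2b is deleted. CON-OLD-iBP is named as an old control with iBP, which is left unexplained in the labels, and CON-YOUNG is the control with Ocn-cre and Ai14 alone. OLD and YOUNG were C57BL/6J mice of 18 and 3 months, without the driver or the reporter as far as the labels say. The labels give no age in months for the CKO and CON groups beyond the words OLD and YOUNG, and the groups analysed here hold no old control of the knockout line without iBP. Ocn-cre is driven by the promoter of osteocalcin, a gene of mature osteoblasts, so a deletion with it is not made in every bone cell. Cells of all groups were grown in DMEM with 10% fetal bovine serum before RNA was taken, and each group had 3 libraries. Whether replicates of a group came from different mice or cultures is not stated. Replicates of OLD and of YOUNG differed in Xist and the Y-linked Ddx3y (values below), so neither group came from a single mouse. Outside those differences, the spread behind each p-value may be technical.

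SOX9 is the transcription factor that commits mesenchymal cells to cartilage, and SOX5 and SOX6 act beside it on cartilage matrix genes. Aggrecan, the product of Acan, is the large proteoglycan that holds water in cartilage, and the link protein made from Hapln1 fixes it to hyaluronan. Comp, Chad, Matn3 and Matn4 encode proteins that join collagen fibrils or cells to the matrix, and Cnmd encodes chondromodulin, a cartilage protein that keeps blood vessels out. Osteoblasts and chondrocytes share a mesenchymal origin, and cartilage lies next to bone in the femur. Kdm2b brings the Polycomb complex PRC1.1 to unmethylated CpG dinucleotides through its CxxC domain.

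Because the CxxC domain binds CpG, the start-site windows of 4 matrix genes are shown with each CpG in capitals. They come from RefSeq on GRCm38.p6, run 5′ to 3′ from 250 bases before the start of transcription to 50 after it, and were picked to span the range of CpG content among genes whose highest library lay far above the rest. The window of Acan is chr7:79052976-79053275 on the plus strand and that of Chad is chr11:94564797-94565096 on the plus strand. The window of Hapln1 is chr13:89540386-89540685 on the plus strand and that of Cnmd is chr14:79662134-79662433 on the minus strand.
Acan: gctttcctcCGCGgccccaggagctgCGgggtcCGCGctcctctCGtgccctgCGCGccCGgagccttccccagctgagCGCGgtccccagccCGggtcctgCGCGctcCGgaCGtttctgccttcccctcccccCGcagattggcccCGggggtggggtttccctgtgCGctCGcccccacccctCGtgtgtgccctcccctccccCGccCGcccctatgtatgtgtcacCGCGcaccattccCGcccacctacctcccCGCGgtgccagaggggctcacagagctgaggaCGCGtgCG
Chad: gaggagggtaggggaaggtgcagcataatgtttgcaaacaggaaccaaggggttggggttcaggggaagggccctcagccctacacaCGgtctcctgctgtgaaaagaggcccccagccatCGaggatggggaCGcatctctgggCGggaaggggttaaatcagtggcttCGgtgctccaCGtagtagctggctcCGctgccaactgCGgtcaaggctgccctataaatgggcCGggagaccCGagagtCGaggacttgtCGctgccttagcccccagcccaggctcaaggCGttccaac
Hapln1: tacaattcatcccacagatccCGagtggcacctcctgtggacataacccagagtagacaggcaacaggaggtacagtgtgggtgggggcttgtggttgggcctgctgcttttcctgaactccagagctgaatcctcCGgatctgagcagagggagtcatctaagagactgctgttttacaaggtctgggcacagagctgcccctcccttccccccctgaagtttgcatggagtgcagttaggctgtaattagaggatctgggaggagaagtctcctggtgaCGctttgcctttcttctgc
Cnmd: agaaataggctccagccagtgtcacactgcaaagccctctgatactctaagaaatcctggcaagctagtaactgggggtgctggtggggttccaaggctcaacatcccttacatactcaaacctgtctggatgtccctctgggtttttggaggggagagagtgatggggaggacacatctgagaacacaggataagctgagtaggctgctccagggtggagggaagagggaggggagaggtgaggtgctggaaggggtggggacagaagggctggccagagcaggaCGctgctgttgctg

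The 4 windows differed widely in CpG content, which ran from 31 CpGs in Acan and 13 in Chad to 3 in Hapln1 and 1 in Cnmd. The median over the 32851 windows of the table was 7, and 89.4% of windows held fewer CpGs than that of Acan against 5.43% for that of Cnmd. A window was given for 8 of the 10 genes, 14 windows in all, and none for Sox9 and Comp. The sequences ACAAAG and ACAATG, written as forms of the site that SOX proteins bind, were searched on both strands. At least one of them stood in 28.6% of all windows and in 6 of the 14 windows of these genes, those being 1 of Sox5 and 5 of Sox6. Neither stood in the 4 windows shown. The TATA sequence TATAAA stood in 13.6% of all windows and in 3 of these, 1 of Chad and 2 of Sox6. No binding or histone data enter here, so the windows describe sequence alone.

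The libraries held 46.27 to 77.7 × 1e6 counts each, so 1 count was worth 0.0127 to 0.0203 CPM (counts scaled to a library of 1e6, with library sizes adjusted by TMM). They did not form 1 even set. Malat1, a nuclear RNA, took 0.0957% to 0.223% of the counts in 10 libraries, namely every CKO-OLD and CON-OLD-iBP library, replicate 2 of OLD and replicate 3 of CKO-YOUNG, CON-YOUNG and YOUNG. It took 0.0296% to 0.0435% in the other 8. Within the Malat1-low libraries those of OLD and YOUNG are set 1 and those of CKO-YOUNG and CON-YOUNG are set 2, and the Malat1-high libraries are set 3. Xist stood at 391 to 481 CPM in the libraries of set 1 and at 0 to 0.404 CPM in all others but replicate 3 of CKO-YOUNG, which held both Xist at 372 CPM and the Y-linked Ddx3y at 21.3 CPM. Ddx3y was at 0 in the libraries of set 1 and at 36.2 to 91.8 CPM in the others but that one. Of the 18 pairs of replicates within groups, OLD replicates 1 and 3 were the most alike, with a median squared difference 6.26 times counting noise against at least 16.2 times in the other pairs, and they were kept as 2 libraries.

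Osteoblast markers were present in every group. Runx2 ranged from 39.2 to 116 CPM, Sp7 from 25.6 to 247.5 CPM and Col1a1 from 2910 to 32710 CPM over the 18 libraries. Sost, a marker of osteocytes, was at 0 in all 18, and Bglap, which encodes osteocalcin, was at 0 to 0.306 CPM in CKO-YOUNG and at 0.15, 0 and 9.89 CPM in CON-YOUNG. Kdm2b stood at 23.4 to 57.2 CPM in CKO-OLD, 19.3 to 34.3 CPM in OLD, 27.6 to 58.2 CPM in CKO-YOUNG and 19.9 to 52.9 CPM in CON-YOUNG, and a count over the whole gene does not test the loss of 1 domain. Macrophage markers, 16 genes, summed to 0.0132% to 1.52% of the counts.

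Acan, Chad and Cnmd were high in single libraries, while Comp, Sox9, Sox6 and Matn4 were spread more evenly over the libraries of some groups. YOUNG replicate 3, CON-OLD-iBP replicate 1, CKO-OLD replicate 3 and, at lower levels, CON-YOUNG replicate 3 carried the highest Acan, Chad and Hapln1 of their groups. In a pool of cells, more cartilage-like cells and more of these RNAs per cell cannot be told apart.

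**Figure D1:**
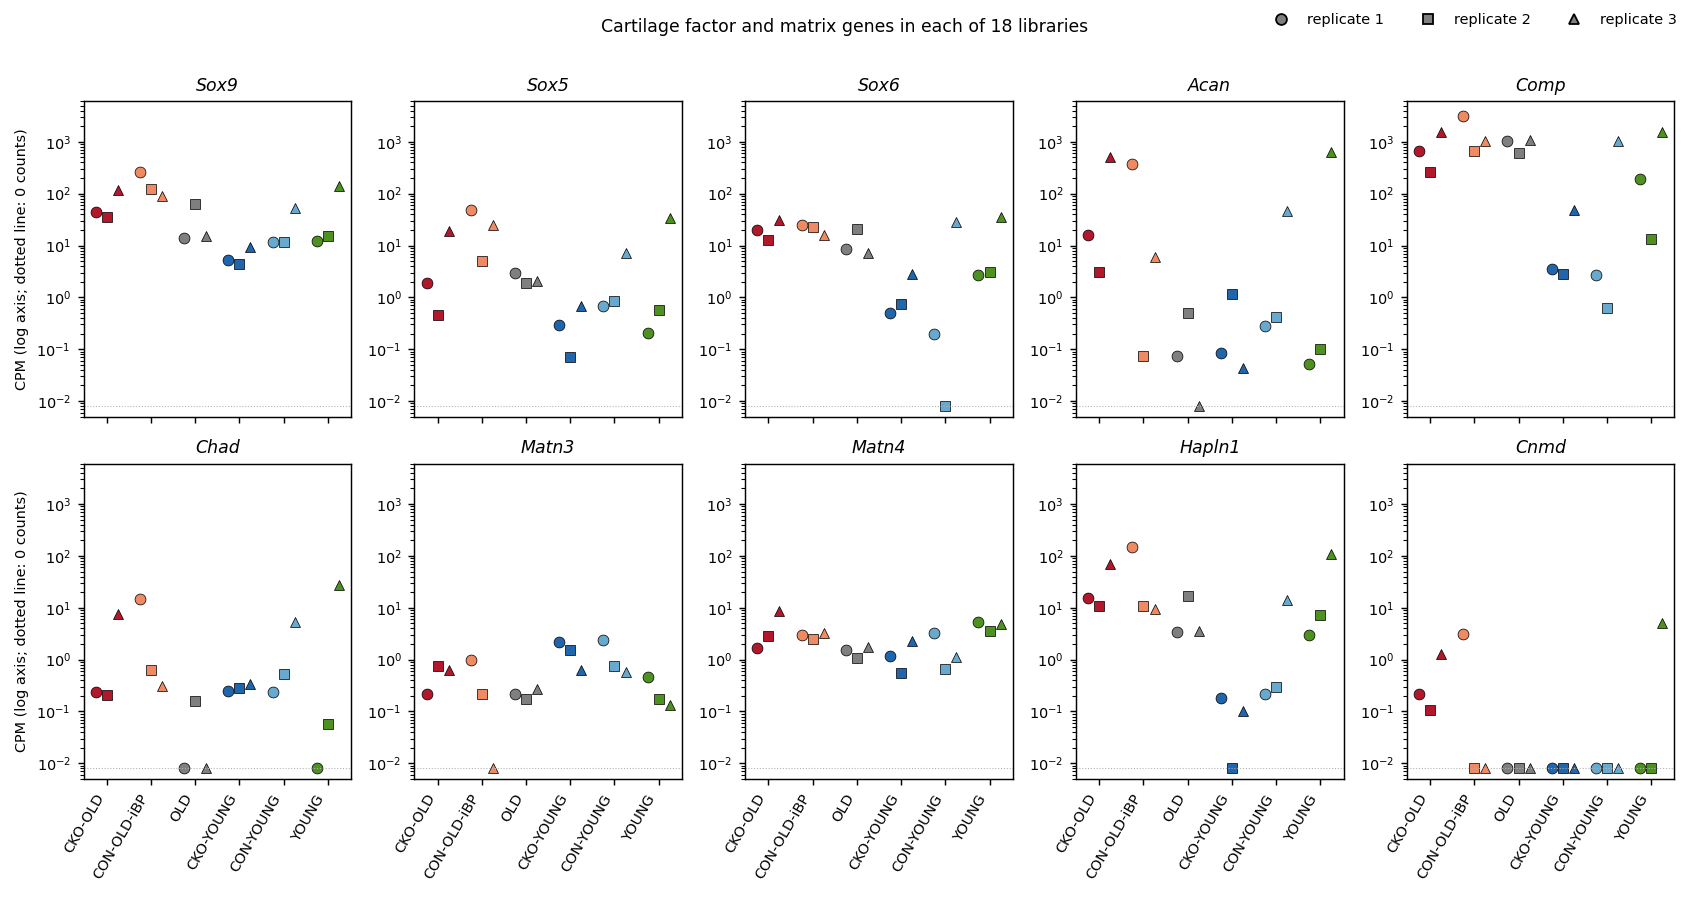
Level of each cartilage gene in CPM (y axis, log scale; points on the dotted line have 0 counts) in the 3 libraries of each group (x axis), with the marker shape giving the replicate number. Acan stands at 649 CPM in YOUNG replicate 3, 501 CPM in CKO-OLD replicate 3 and 378 CPM in CON-OLD-iBP replicate 1, and at 46 CPM or less in the other 15 libraries.

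Sox9 was found in every library. It had 44.5, 36.0 and 118 CPM in CKO-OLD, 258, 124 and 90.5 CPM in CON-OLD-iBP, 14.1, 63.2 and 15.3 CPM in OLD, 5.33, 4.43 and 9.18 CPM in CKO-YOUNG, 11.5, 11.5 and 53.4 CPM in CON-YOUNG and 12.1, 15.0 and 139 CPM in YOUNG (values in replicate order 1, 2, 3, as in all such lists that follow). CKO-YOUNG was the only group with all 3 libraries below 10 CPM, and CON-OLD-iBP the only one with all 3 above 90 CPM. The 9 highest Sox9 levels were all in Malat1-high libraries, and CKO-YOUNG replicate 3, the other library of that set, had 9.18 CPM.

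Sox5, whose product binds DNA as a partner of SOX6, had 1.87, 0.455 and 18.9 CPM in CKO-OLD, 47.8, 5.10 and 25.0 CPM in CON-OLD-iBP, 2.96, 1.93 and 2.04 CPM in OLD, 0.287, 0.0706 and 0.671 CPM in CKO-YOUNG, 0.685, 0.864 and 7.01 CPM in CON-YOUNG and 0.203, 0.565 and 33.6 CPM in YOUNG. In YOUNG the highest library was 59.5 times the middle one, in CKO-OLD 10.1 times, in CON-YOUNG 8.12 times and in OLD 1.45 times.

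Sox6 followed another order. It had 19.6, 13.0 and 31.5 CPM in CKO-OLD, 24.7, 22.6 and 15.7 CPM in CON-OLD-iBP, 8.61, 21.2 and 7.07 CPM in OLD, 0.507, 0.742 and 2.77 CPM in CKO-YOUNG, 0.2, 0 and 28.9 CPM in CON-YOUNG and 2.76, 3.10 and 34.7 CPM in YOUNG. All 9 libraries of the groups with OLD in their name were above 7 CPM. Replicates 1 and 2 of CKO-YOUNG and CON-YOUNG were below 1 CPM, and CON-YOUNG replicate 3 was 144 times the middle library of its group.

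Acan varied most between replicates. It had 16.3, 3.10 and 501 CPM in CKO-OLD, 378, 0.0734 and 5.96 CPM in CON-OLD-iBP, 0.0724, 0.495 and 0 CPM in OLD, 0.0845, 1.18 and 0.0438 CPM in CKO-YOUNG, 0.284, 0.423 and 46 CPM in CON-YOUNG and 0.0508, 0.102 and 649 CPM in YOUNG. In YOUNG the highest library was 6395 times the middle one. No library of OLD or CKO-YOUNG was above 1.18 CPM, and their group totals were 33 and 75 counts against 33616 in YOUNG.

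Hapln1, the gene of the link protein, had 15.3, 10.7 and 69.6 CPM in CKO-OLD, 149.8, 10.6 and 9.59 CPM in CON-OLD-iBP, 3.39, 16.8 and 3.51 CPM in OLD, 0.186, 0 and 0.102 CPM in CKO-YOUNG, 0.217, 0.294 and 14.3 CPM in CON-YOUNG and 3.05, 7.31 and 111 CPM in YOUNG. It shared its 4 group-high libraries with Acan, but unlike Acan it was at 3 CPM or more in every library of OLD and YOUNG. CKO-YOUNG held 18 counts of Hapln1 over its 3 libraries.

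Comp, which encodes a protein of cartilage and tendon that binds collagen, had 654, 266 and 1551 CPM in CKO-OLD, 3184, 661 and 1044 CPM in CON-OLD-iBP, 1030, 609.8 and 1060 CPM in OLD, 3.45, 2.83 and 48.5 CPM in CKO-YOUNG, 2.67, 0.625 and 1043 CPM in CON-YOUNG and 195, 13.5 and 1524 CPM in YOUNG. OLD replicates 1 and 3, with no more than 0.0724 CPM of Acan, thus held Comp at levels near that of CON-YOUNG replicate 3. CKO-YOUNG lay below every library of CKO-OLD, CON-OLD-iBP and OLD.

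Chad, which encodes chondroadherin, had 0.241, 0.210 and 7.43 CPM in CKO-OLD, 14.7, 0.624 and 0.304 CPM in CON-OLD-iBP, 0, 0.159 and 0 CPM in OLD, 0.254, 0.283 and 0.336 CPM in CKO-YOUNG, 0.234, 0.533 and 5.38 CPM in CON-YOUNG and 0, 0.0580 and 27.6 CPM in YOUNG. Only the same 4 libraries passed 1 CPM. The 3 libraries of OLD held 9 counts in all.

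Cnmd was at 0 in 13 of the 18 libraries, among them all 9 of OLD, CKO-YOUNG and CON-YOUNG. It had 0.221, 0.105 and 1.27 CPM in CKO-OLD, 3.11, 0 and 0 CPM in CON-OLD-iBP and 0, 0 and 4.98 CPM in YOUNG. Against a floor of 3 counts over a group, which covers counting error only, Cnmd was at least 34.7-fold higher in CKO-OLD and at least 64.5-fold higher in CON-OLD-iBP than in OLD, at least 33.2-fold higher in CKO-OLD than in CKO-YOUNG, and at least 83.0-fold lower in OLD and at least 73.3-fold lower in CON-YOUNG than in YOUNG. In CON-OLD-iBP and YOUNG a single library held all of the counts.

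Matn3 and Matn4, which encode matrilins, did not share these libraries in the same way. Matn3 had 0.221, 0.753 and 0.625 CPM in CKO-OLD, 0.990, 0.220 and 0 CPM in CON-OLD-iBP, 0.217, 0.177 and 0.269 CPM in OLD, 2.23, 1.5 and 0.642 CPM in CKO-YOUNG, 2.42, 0.754 and 0.574 CPM in CON-YOUNG and 0.470, 0.174 and 0.135 CPM in YOUNG. Its 3 highest libraries were those of CKO-YOUNG replicates 1 and 2 and CON-YOUNG replicate 1, and YOUNG replicate 3, the highest library for Acan, was the lowest of its group. Matn4 had 1.69, 2.84 and 8.86 CPM in CKO-OLD, 3.05, 2.55 and 3.28 CPM in CON-OLD-iBP, 1.51, 1.06 and 1.72 CPM in OLD, 1.15, 0.547 and 2.25 CPM in CKO-YOUNG, 3.31, 0.662 and 1.13 CPM in CON-YOUNG and 5.21, 3.49 and 4.83 CPM in YOUNG. The 3 YOUNG libraries agreed to within 1.49-fold for Matn4.

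Counted over the 10 genes, CKO-OLD replicate 3 was the highest library of its group for 9 and CON-OLD-iBP replicate 1 for 9, where 27.9% and 30.0% of all tested genes had their group's highest value in those libraries. YOUNG replicate 3 was the highest for 8 of 10 genes (40.4% of all tested genes), and CON-YOUNG replicate 3 for 7 of the 9 genes with a count in that group (46.4%). CKO-YOUNG replicate 3 was the highest for 6 of 9 (49.3%) and OLD replicate 2 for 5 of 9 (45.2%).

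The spread between replicates was therefore wide. On the log2 scale the SD of Acan within groups was 4.80, that of Chad 3.30, of Cnmd 3.05, of Comp 2.95, of Sox6 2.65, of Hapln1 2.35 and of Sox5 2.27, against a median of 0.475 over the tested genes. Low genes vary more by counting alone, so each gene was also set against those with the same or a higher mean level. By that measure Comp varied more than 99.9% of 1146 genes, Acan more than 99.98% of 12289 and Sox9, with an SD of 1.20, more than 98.5% of 5935. Matn4 was the least variable of the 10, with an SD of 0.831, above that of 88.7% of 11745 genes. Differences between replicates of a group made up 64.4% of the sum of squares of Acan and 65.6% of that of Chad, but 27.5% of that of Hapln1 and 32.8% of that of Sox9, where the median gene had 49.97%.

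**Figure D2:**
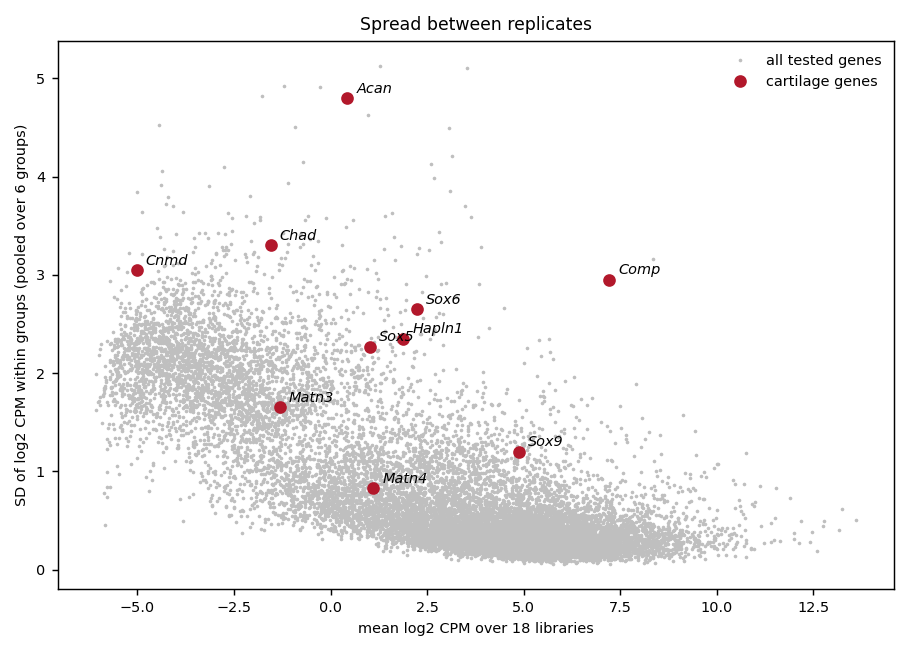
SD of log2 CPM between replicates, pooled over the 6 groups (y axis), against mean log2 CPM over 18 libraries (x axis), with 1 point per tested gene and the cartilage genes in red. Acan has an SD of 4.80 and Comp one of 2.95, against a median of 0.475 over all tested genes.

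The cartilage collagens were high in these libraries, and other cartilage genes in part. All 7 collagens had their group's highest value in CKO-OLD replicate 3, CON-OLD-iBP replicate 1 and YOUNG replicate 3, and 6 of 7 had it in CON-YOUNG replicate 3. Of the 23 tested genes of a list of 25 further cartilage genes, 15, 20, 20 and 16 had it in these 4 libraries, in the same order. Of 11 hypertrophic cartilage genes, 3, 7, 6 and 2 did. Col2a1, the main collagen of cartilage, had 499, 87.4 and 8015 CPM in CKO-OLD, 7591, 12.1 and 264 CPM in CON-OLD-iBP, 21.9, 12.2 and 24.2 CPM in OLD, 1404, 1327 and 421 CPM in CKO-YOUNG, 988, 602 and 3513 CPM in CON-YOUNG and 48.0, 27.4 and 13550 CPM in YOUNG. Col9a1, which encodes a chain of collagen IX on the surface of cartilage fibrils, was at 28.9 CPM in YOUNG replicate 3, 15.3 CPM in CON-OLD-iBP replicate 1 and 8.57 CPM in CKO-OLD replicate 3, at 0.664 CPM in CON-YOUNG replicate 3 and 0.241 CPM in CKO-OLD replicate 1, and at 0 in the other 13. Those 13 are not the same as the 13 libraries without Cnmd, since CKO-OLD replicate 2 held Cnmd and CON-YOUNG replicate 3 did not.

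Col2a1 and Acan parted in 5 libraries. In all 3 libraries of CKO-YOUNG and replicates 1 and 2 of CON-YOUNG, Col2a1 stood at 421 to 1404 CPM while Acan was at 1.18 CPM or less, Hapln1 at 0.294 CPM or less and Col9a1 at 0. Col10a1, which marks hypertrophic chondrocytes, was at 233 CPM in YOUNG replicate 3, 194 CPM in CON-OLD-iBP replicate 1 and 79.6 CPM in CKO-OLD replicate 3, and at 0.851 to 9.02 CPM in the other 15 libraries. Col10a1 in CON-YOUNG replicate 3, at 9.02 CPM, differed little from the 7.85 and 6.47 CPM of replicates 1 and 2, although Acan there was 109 times the middle library of the group.

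**Figure D3:**
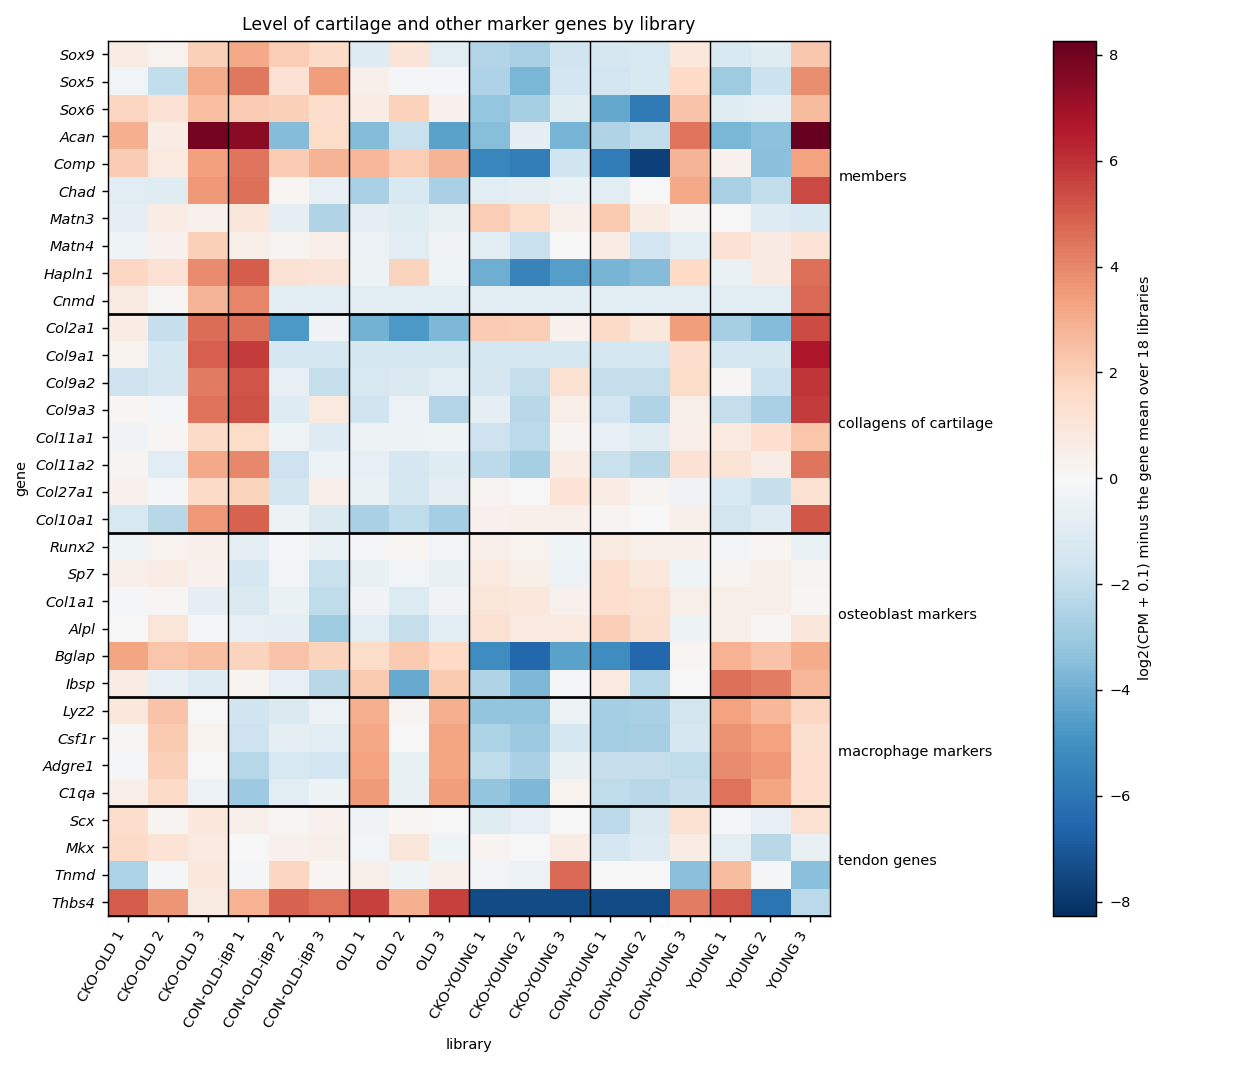
Level of the cartilage genes and of markers of cartilage collagen, osteoblasts, macrophages and tendon (rows) in 18 libraries (columns), as log2(CPM + 0.1) minus the mean of the gene, so that colours compare libraries within a gene. Acan, Col9a1, Col9a2, Col9a3 and Col10a1 are darkest red in YOUNG replicate 3, CON-OLD-iBP replicate 1 and CKO-OLD replicate 3.

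Markers of other cells did not share this pattern in full. Macrophage markers summed to 0.137% of the counts in CKO-OLD replicate 3, against 0.223% and 0.599% in replicates 1 and 2, to 0.0492% in CON-OLD-iBP replicate 1, against 0.0613% and 0.0963% in replicates 2 and 3, and to 0.333% in YOUNG replicate 3, against 1.52% and 0.968% in replicates 1 and 2. They were lowest, within each of these 3 groups, in the library highest in Acan, while in CON-YOUNG they summed to 0.0459% in replicate 3, against 0.0178% and 0.0186% in replicates 1 and 2. Their part in the results was not tested. The 14 osteoblast markers summed to 2.54%, 2.18% and 4.11% of the counts in those 3 libraries and to 1.35% to 5.55% over all 18. Among tendon genes, Thbs4, which cartilage also expresses, had 557, 217 and 29.2 CPM in CKO-OLD, 128, 511 and 387 CPM in CON-OLD-iBP, 848, 131 and 857 CPM in OLD, 0 in CKO-YOUNG, 0, 0 and 323 CPM in CON-YOUNG and 617, 0.160 and 3.63 CPM in YOUNG. It was thus low in CKO-OLD replicate 3 and YOUNG replicate 3, lowest of its group in CON-OLD-iBP replicate 1, and present in CON-YOUNG in replicate 3 alone. Dcn, which encodes the proteoglycan decorin of tendon and other connective tissue, was the highest of its group in all 4, at 126 CPM in CKO-OLD replicate 3, 565 CPM in CON-OLD-iBP replicate 1, 83.0 CPM in CON-YOUNG replicate 3 and 879 CPM in YOUNG replicate 3. Scx, a tendon transcription factor, was the highest of its group in CON-OLD-iBP replicate 1, CON-YOUNG replicate 3 and YOUNG replicate 3, at 22.9, 41.7 and 41.1 CPM. Of the 11 tendon genes tested, 3 were the highest of their group in CKO-OLD replicate 3, 4 in CON-OLD-iBP replicate 1, 8 in CON-YOUNG replicate 3 and 5 in YOUNG replicate 3, and their part was not tested.

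Across the 18 libraries the 10 genes differed in pattern. The correlations of log2 CPM are descriptions over libraries that share groups, library sets and scaling. Sox6 and Comp were the closest pair (r = 0.920), followed by Sox9 and Hapln1 (r = 0.889) and Sox9 and Sox5 (r = 0.886). Acan went with Chad (r = 0.850) and Cnmd (r = 0.834). Comp and Chad, both matrix genes, had r = 0.204, and Matn3 ran against Sox9, Sox5, Sox6, Comp and Hapln1, with r from -0.513 to -0.441. Col2a1 had r = 0.799 with Chad and 0.765 with Acan but -0.022 with Sox6 and -0.034 with Comp.

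**Figure D4:**
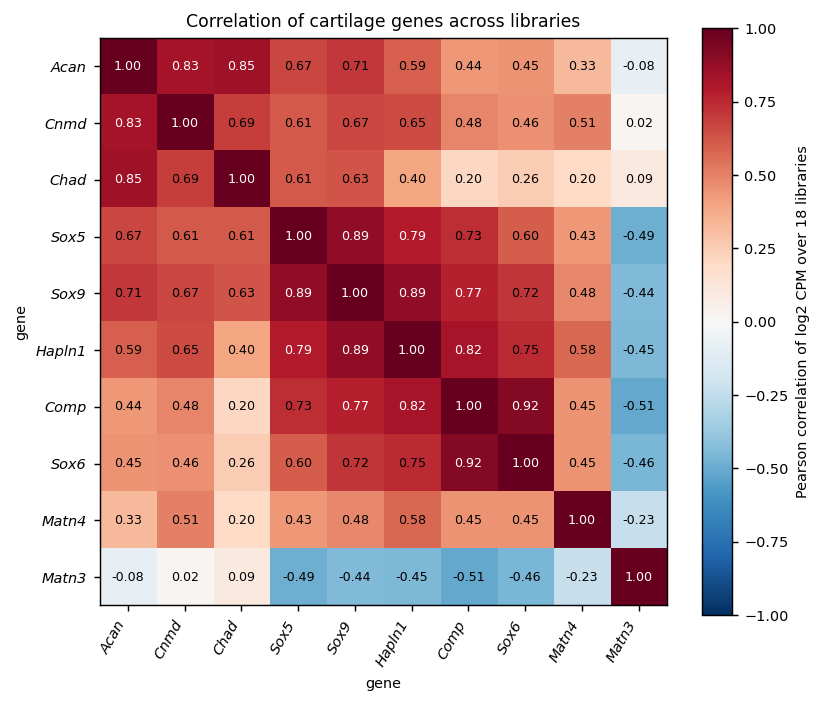
Pearson correlation of log2 CPM over 18 libraries (colour scale, -1 to 1) for each pair of cartilage genes (rows and columns). Sox6 and Comp form the closest pair at 0.920, and Matn3 is negative with Sox9, Sox5, Sox6, Comp and Hapln1.

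Among all tested genes, the 3 with the highest r to each gene were taken as most like it, over 18 libraries. For Acan they were Col9a1 (0.894), Snorc (0.893), which encodes a cartilage membrane proteoglycan, and Foxo1 (0.876), and for Cnmd they were Sim1 (0.899), Col9a1 (0.895) and Proser2 (0.885). For Sox5 they were Itih2 (0.951), Ephx2 (0.929) and Prelp (0.913), the last encoding a leucine-rich matrix protein, and for Chad Tiam2 (0.908), Foxo1 (0.893) and P3h2 (0.883). Sox9 was closest to Tmbim1 (0.948), Sc5d (0.943) and Ulk3 (0.940), Sox6 to Aldh1a1 (0.956), Dlx1 (0.944) and Prss12 (0.942), and Comp to Igfbp6 (0.957), Anxa8 (0.957) and Rian (0.956). Hapln1 was closest to BC004004 (0.935), Clip4 (0.932) and Lamb3 (0.922), Matn3 to Med23 (0.897), Rmi2 (0.893) and Hey1 (0.890), and Matn4 to S100b (0.771), Mmp13 (0.771) and Clic3 (0.739). The top 3 of Acan, Cnmd, Sox5 and Matn4 held a gene of the cartilage lists (Col9a1, Snorc, Prelp or Mmp13), and those of the others held none. This follows from the cut at 3 genes and does not set the genes apart. Sox9 had r = 0.896 with Prelp, and Comp had r = 0.911 with Fmod, listed with cartilage and tendon genes, near the value of Acan with Col9a1.

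Whether any of the 6 groups differed was asked of each gene with the quasi-likelihood F test of edgeR over all 18 libraries, adjusted by Benjamini-Hochberg over 16566 genes. Sox9 was the 1 gene of 10 that passed, with an adjusted p of 0.0453, where 18% of all genes passed. It averaged 66.0 ± 44.9 CPM in CKO-OLD, 157 ± 88.6 CPM in CON-OLD-iBP, 30.9 ± 28.0 CPM in OLD, 6.31 ± 2.52 CPM in CKO-YOUNG, 25.5 ± 24.2 CPM in CON-YOUNG and 55.3 ± 72.5 CPM in YOUNG (SD, n = 3 each). Hapln1 had an adjusted p of 0.0665 by this edgeR test, Matn4 0.126, Sox5 0.132 and Acan 0.165, and 4 of 10 genes (Sox9, Sox5, Matn4 and Hapln1) had an unadjusted p under 0.05, against 37.4% of all genes. The call of Sox9 rested on the full set: it held in 5 of 18 fits that left out 1 library, with edgeR adjusted p from 0.00711 to 0.126. It was lost with a term for library set (adjusted p = 0.0704). There the unadjusted edgeR p was smaller, 0.00435 against 0.00746, and 681 of all genes passed against 2977. Over the 18 libraries Sox9 had r = 0.859 with Malat1, by whose share set 3 was split off. Whether library set accounts for the difference in Sox9 was not tested.

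The ageing comparison asked how osteoblasts of 18-month mice differ from those of 3-month mice. None of the 10 genes passed the edgeR test in OLD against YOUNG, where 0% of all genes did. An unadjusted p under 0.05 was found for 3 of 10 genes, against 3.34% of all genes, namely Acan, Chad and Matn4. Acan averaged 0.189 ± 0.268 CPM in OLD and 216 ± 375 CPM in YOUNG, a log2 fold change of -10.21 (SE 4.03, edgeR adjusted p = 1). Chad averaged 0.0531 ± 0.0919 CPM in OLD and 9.22 ± 15.9 CPM in YOUNG, with a log2 fold change of -7.46 (SE 2.87, edgeR adjusted p = 1). Both rested on YOUNG replicate 3: without it the log2 fold change was 1.23 for Acan and 0.79 for Chad.

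Matn4 was the steadier case. It averaged 1.43 ± 0.33 CPM in OLD and 4.51 ± 0.90 CPM in YOUNG, a log2 fold change of -1.66 (SE 0.67, edgeR adjusted p = 1), and every OLD library lay below every YOUNG library. It was the 1 of the 10 genes whose groups did not overlap here, where 11.4% of all genes did not. Leaving out 1 library kept its log2 fold change between -1.81 and -1.48, and it was -1.43 within set 1 (2 libraries a side) and -2.18 within set 3 (1 library a side). OLD replicates 1 and 3, the near-alike pair, had Matn4 at 1.51 and 1.72 CPM.

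CKO-YOUNG was set against CON-YOUNG to see what the loss of the CxxC domain does in young cells. None of the 10 genes passed, where 0.127% of all genes did, and Hapln1 alone had an unadjusted p under 0.05, against 5.48% of all genes. Hapln1 averaged 0.0960 ± 0.0931 CPM in CKO-YOUNG and 4.94 ± 8.12 CPM in CON-YOUNG, a log2 fold change of -5.64 (SE 2.07, edgeR adjusted p = 0.658). All 3 CKO-YOUNG libraries lay below all 3 CON-YOUNG libraries for Hapln1, Sox9 and Sox5, 3 of 10 genes, where 8.51% of all genes did not overlap in either direction. CON-YOUNG replicate 3 held most of the difference in Hapln1, whose log2 fold change was -1.37 without it, -1.41 within set 2 (replicates 1 and 2) and -7.10 within set 3 (replicate 3 of each). Within set 3, Sox6 was called lower in CKO-YOUNG, at 2.77 CPM in CKO-YOUNG replicate 3 and 28.9 CPM in CON-YOUNG replicate 3, a test of 1 library a side whose spread comes from the other groups. CKO-YOUNG replicate 3 is the library with both Xist and Ddx3y. In a fit of these 2 groups alone the replicate number as a block gave 0 of all genes called, against 4 without the block, where the fit of all 18 libraries gave 21. No gene of the 10 was called in any of the 3, and the fits of these 2 groups alone tested 9 of the 10.

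In old cells the knockout had no control of its own line without iBP, so CKO-OLD was set against OLD, of another line. OLD replicates 1 and 3 also differed from every CKO-OLD library in Xist, Ddx3y and library set, which cannot be told apart from line. None of the 10 genes passed, where 0.00604% of all genes did. Acan averaged 173 ± 284 CPM in CKO-OLD and 0.189 ± 0.268 CPM in OLD, with a log2 fold change of 9.89 (SE 3.99, edgeR adjusted p = 0.586), and Matn4 averaged 4.46 ± 3.85 CPM in CKO-OLD and 1.43 ± 0.33 CPM in OLD, with a log2 fold change of 1.64 (SE 0.67, edgeR adjusted p = 0.586). These 2 had an unadjusted p under 0.05, against 8.16% of all genes. The groups of 3 genes did not overlap, Acan, Chad and Cnmd being higher in each CKO-OLD library than in each OLD library, where 17.4% of all genes did not overlap. Even the lowest CKO-OLD library had 3.10 CPM of Acan, against 0.495 CPM in the highest OLD library. Without CKO-OLD replicate 3 the log2 fold change of Acan was 5.73. None of the 16 macrophage markers was positive (median log2 fold change -1.66) and 1 of 9 osteoclast markers was (median -3.43), none was called, and their part was not tested.

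CON-OLD-iBP against OLD differed in line as well as in iBP. OLD replicates 1 and 3 also differed from every CON-OLD-iBP library in Xist, Ddx3y and library set. These differences cannot be told apart. None of the 10 genes passed, where 0.0241% of all genes did, and Sox9, Acan and Chad had an unadjusted p under 0.05, against 23.4% of all genes. Sox9 averaged 157 ± 88.6 CPM in CON-OLD-iBP and 30.9 ± 28.0 CPM in OLD, a log2 fold change of 2.35 (SE 0.96, edgeR adjusted p = 0.159). Sox9, Sox5, Chad and Matn4 were higher in each CON-OLD-iBP library than in each OLD library, 4 of 10 genes, where 30.2% of all genes did not overlap. Acan had a log2 fold change of 9.45 (SE 3.93, edgeR adjusted p = 0.167), which was 4.02 without CON-OLD-iBP replicate 1, and Chad had one of 6.63 (SE 2.78, edgeR adjusted p = 0.170). OLD replicate 2, the Malat1-high library of its group, had Sox9 at 63.2 CPM, and within set 3 the log2 fold change of Sox9 was 1.31. None of the 16 macrophage markers was positive (median log2 fold change -3.70) and 1 of 9 osteoclast markers was (median -6.20), none was called, and their part was not tested.

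Between CKO-OLD and CON-OLD-iBP, all Malat1-high, none of the 10 genes passed, where 1.29% of all genes did, and none had an unadjusted p under 0.05, against 19.6% of all genes. The groups overlapped for all 10 genes, where 30.5% of all genes did not overlap. Comp, for example, averaged 824 ± 659 CPM in CKO-OLD and 1630 ± 1359 CPM in CON-OLD-iBP. Each group had 1 library with much Acan, 501 CPM in CKO-OLD replicate 3 and 378 CPM in CON-OLD-iBP replicate 1.

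CKO-OLD against CKO-YOUNG compares the knockout at 2 ages, and the median difference of the 10 genes was farthest from 0 here. None passed the edgeR test, where 0.7% of all genes did, but 7 had an unadjusted p under 0.05, against 24.5% of all genes. Hapln1 averaged 31.8 ± 32.8 CPM in CKO-OLD and 0.0960 ± 0.0931 CPM in CKO-YOUNG, a log2 fold change of 8.33 (SE 2.26, edgeR adjusted p = 0.0688). Sox9 averaged 66.0 ± 44.9 CPM in CKO-OLD and 6.31 ± 2.52 CPM in CKO-YOUNG, a log2 fold change of 3.39 (SE 1.01, edgeR adjusted p = 0.0796). The other 5 were Sox5, Sox6, Acan, Comp and Matn4, with log2 fold changes of 4.34, 3.99, 8.65, 5.49 and 1.76 and edgeR adjusted p of 0.136 to 0.174. Sox9, Sox6, Acan, Comp, Hapln1 and Cnmd were higher in each CKO-OLD library than in each CKO-YOUNG library, 6 of 10 genes, where 31.5% of all genes did not overlap. The 7 genes with an unadjusted p under 0.05 became 2 without CKO-OLD replicate 3, 2 without CKO-YOUNG replicate 1, 3 without CKO-YOUNG replicate 2 and 2 with a library set term. In that order 3120 of 17089, 2441 of 16993, 2467 of 17009 and 1775 of 16566 genes had such a p.

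CKO-YOUNG replicates 1 and 2 are Malat1-low and all CKO-OLD libraries Malat1-high, so age and library set go together here except for CKO-YOUNG replicate 3. Against that library alone, the log2 fold change was 2.85 for Sox9 and 2.94 for Sox6 (edgeR adjusted p = 0.0479 and 0.0447), 8.26 for Hapln1 (adjusted p = 0.0816) and 4.09 for Comp (adjusted p = 0.186), a test whose spread rests on the other groups. With a set term over all libraries, that of Sox6 was 0.13, of Comp 1.13 and of Sox9 2.35, none called. Of the osteoblast markers, Bglap was called higher in CKO-OLD by a log2 fold change of 8.53 (SE 1.66, edgeR adjusted p = 0.0389) and Spp1, which encodes osteopontin, by 2.57 (SE 0.42, adjusted p = 0.0253). Mitf, from the list of glia and melanocyte markers, was called higher by 1.82 (SE 0.30, edgeR adjusted p = 0.0253). In these lists 8 of 13 osteoblast markers and 4 of 6 glia and melanocyte markers were positive.

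CON-YOUNG against YOUNG sets the driver and reporter line against C57BL/6J mice. Replicates 1 and 2 of these groups also differed in Xist and Ddx3y, which cannot be told apart from line. All of them are Malat1-low, and sets 1 and 2 were split by group, so set is no further difference. None of the 10 genes passed, where 5.55% of all genes did, and none had an unadjusted p under 0.05, against 23% of all genes. The groups did not overlap for Matn3, higher in each CON-YOUNG library, and Matn4, lower in each, 2 of 10 genes, where 23.1% of all genes did not overlap. Matn3 averaged 1.25 ± 1.02 CPM in CON-YOUNG and 0.260 ± 0.183 CPM in YOUNG, and Matn4 1.70 ± 1.41 CPM in CON-YOUNG and 4.51 ± 0.90 CPM in YOUNG. Without CON-YOUNG replicate 3, Hapln1, Sox6 and Comp were called lower in CON-YOUNG, where 2924 of 17108 genes were called, 1714 of them lower. All 16 macrophage markers were called lower in CON-YOUNG than in YOUNG, among them Cd68, Csf1r, Laptm5 and Ptprc with log2 fold changes of -5.28, -5.26, -5.11 and -5.22 (edgeR adjusted p = 0.0141 each), and their part in these values was not tested. Of the 6 endothelial markers tested, Kdr (-4.12, SE 0.92, edgeR adjusted p = 0.0200) and Vwf (-2.46, SE 0.64, adjusted p = 0.0390) were also called lower, while 2 others were positive. The tendon factor gene Egr2 (-2.73, SE 0.63, edgeR adjusted p = 0.0224), the osteoblast marker Spp1 (-1.47, SE 0.40, adjusted p = 0.0459) and Mitf (-1.79, SE 0.30, adjusted p = 0.0141) were called lower too. Their lists were mixed. Of 13 osteoblast markers 8 were positive (median log2 fold change 0.31), as were 3 of 11 tendon genes and 1 of 6 glia and melanocyte markers. In a fit of these 2 groups alone the replicate number as a block gave 0 of all genes called, against 1 without the block, where the fit of all 18 libraries gave 919.

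Whether the difference of knockout and other cells depended on age was tested as the difference between CKO-OLD against OLD and CKO-YOUNG against CON-YOUNG. None of the 10 genes passed, where 0% of all genes did. An unadjusted p under 0.05 was found for Sox9, Acan, Chad, Matn4 and Hapln1, 5 of 10 genes, against 4.81% of all genes, and the edgeR adjusted p of each was 0.963. That count of 5 was 0 with a library set term, 1 without CON-YOUNG replicate 3 and 2 without CKO-OLD replicate 3, OLD replicate 1 or 3, or CKO-YOUNG replicate 1 or 2. Of all genes, 619 of 16566 had such a p with the set term. Without those libraries it was 429 to 990 of 16993 to 17108 genes. The test joins a pair of the same line with a pair of different lines, so line and age cannot be told apart.

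Other tools called few of the 10 genes. limma-voom called none in the 7 comparisons, where it called 0% of all genes in OLD against YOUNG, 0.392% in CKO-YOUNG against CON-YOUNG, 0.00604% in CKO-OLD against OLD, 0.278% in CON-OLD-iBP against OLD, 1.62% in CKO-OLD against CON-OLD-iBP, 1.53% in CKO-OLD against CKO-YOUNG and 3.34% in CON-YOUNG against YOUNG. DESeq2 gave no adjusted p for Acan, Chad, Hapln1 and Cnmd, the 4 genes whose windows are shown above. Of the other 6 it called Sox9 in CON-OLD-iBP against OLD (adjusted p = 0.0421), where it called 12.4% of all genes, and Sox9, Sox5 and Comp in CKO-OLD against CKO-YOUNG (adjusted p = 0.00237, 0.0350 and 0.0180), where it called 12%. It called none of the 6 in OLD against YOUNG (0.241% of all genes), CKO-YOUNG against CON-YOUNG (1.37%), CKO-OLD against OLD (1.09%), CKO-OLD against CON-OLD-iBP (8.58%) and CON-YOUNG against YOUNG (12.4%).

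The lists of other cartilage genes held few calls too. Of the 7 cartilage collagens none was called in any of the 7 comparisons, and of the 23 other cartilage genes tested none was called either. The collagens were all 7 positive in CKO-OLD against OLD (median log2 fold change 4.60), CON-OLD-iBP against OLD (5.31) and CKO-OLD against CKO-YOUNG (2.45), and all 7 were negative in OLD against YOUNG (-5.78), with none past the test. These medians rested on single libraries: they were 1.00 in CKO-OLD against OLD without CKO-OLD replicate 3, 0.05 in CON-OLD-iBP against OLD without CON-OLD-iBP replicate 1, 0.41 in CKO-OLD against CKO-YOUNG without CKO-OLD replicate 3 and -0.95 in OLD against YOUNG without YOUNG replicate 3. Of the 11 hypertrophic genes, Pth1r was called once, higher in CKO-OLD than in CON-OLD-iBP by a log2 fold change of 2.46 (SE 0.49, edgeR adjusted p = 0.0282). The median log2 fold change of the 10 genes was -1.98 in OLD against YOUNG, -2.83 in CKO-YOUNG against CON-YOUNG (-2.85 without Cnmd, which had no count in either group), 1.63 in CKO-OLD against OLD, 2.60 in CON-OLD-iBP against OLD, -0.90 in CKO-OLD against CON-OLD-iBP, 4.17 in CKO-OLD against CKO-YOUNG and -1.71 in CON-YOUNG against YOUNG. In that order 1, 1, 9, 10, 4, 9 and 1 of the 10 were positive. The median of all genes lay between -0.03 and 0.01 in each, with 45.5% to 51.0% of genes positive. Several of these comparisons share OLD, YOUNG, CKO-OLD or other groups, so they are not independent of each other.

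Single libraries moved these medians far. In OLD against YOUNG the median of the 10 genes was 0.98 without YOUNG replicate 3, and in CON-YOUNG against YOUNG it was 1.70 without that library and -5.80 without CON-YOUNG replicate 3. In CKO-YOUNG against CON-YOUNG it was -0.26 without CON-YOUNG replicate 3. In CKO-OLD against OLD it was 0.69 without CKO-OLD replicate 3, in CON-OLD-iBP against OLD 0.82 without CON-OLD-iBP replicate 1, and in CKO-OLD against CON-OLD-iBP 1.14 without CON-OLD-iBP replicate 1 and -2.05 without CKO-OLD replicate 3. In CKO-OLD against CKO-YOUNG it stayed between 3.13 and 5.19 whichever library was left out. With a library set term the medians of the 10 genes were -0.79 in OLD against YOUNG, -1.08 in CKO-YOUNG against CON-YOUNG, 0.91 in CKO-OLD against OLD, 1.03 in CON-OLD-iBP against OLD, -0.90 in CKO-OLD against CON-OLD-iBP, 1.95 in CKO-OLD against CKO-YOUNG and -1.50 in CON-YOUNG against YOUNG. Sets 1 and 2 share no group. The term thus rests on few libraries of set 3, namely OLD replicate 2 and replicate 3 of YOUNG, CKO-YOUNG and CON-YOUNG.

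**Figure D5:**
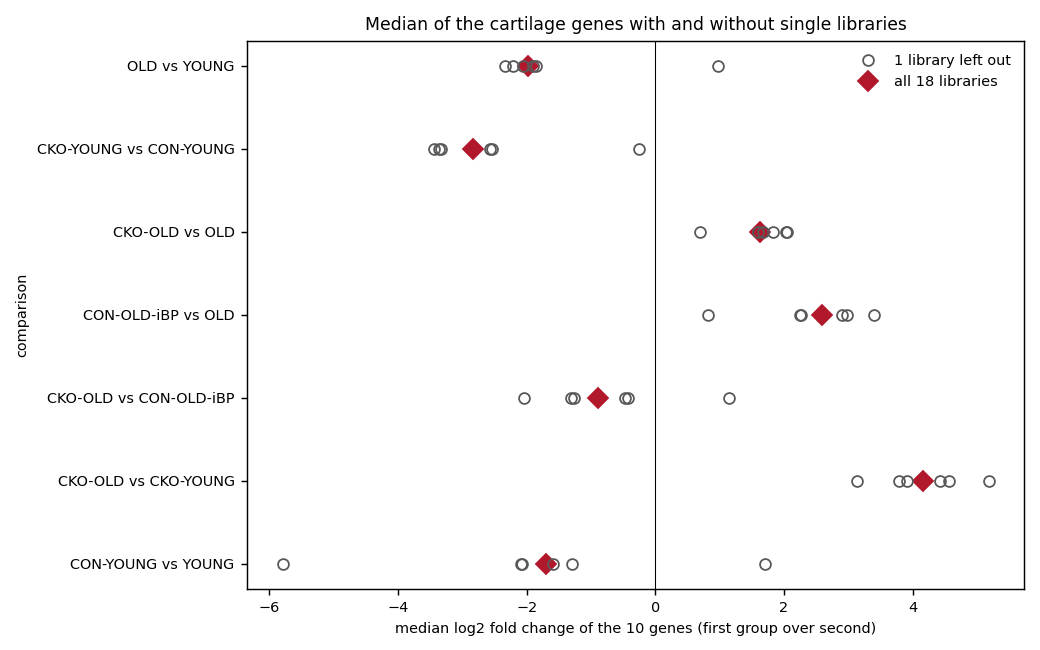
Median log2 fold change of the 10 cartilage genes (x axis, first group over second) in each of 7 comparisons (y axis), with all 18 libraries (red diamonds) and with 1 library of the compared groups left out (open circles). OLD against YOUNG, CKO-OLD against CON-OLD-iBP and CON-YOUNG against YOUNG have a circle on each side of 0, while the other 4 comparisons do not.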

How the data were processed

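Per the submitters' processing notes, reads were handled with FastQC, Trim Galore and HISAT2 on mm39. The counter, the annotation and any use of strand are not stated there, so overlapping and antisense genes cannot be told apart. The authors deposited whole-number counts per gene symbol, with no normalization. No other per-sample column was used, and the 8 CUT&Tag samples were not analysed here. The tests used edgeR 4.0.16 in R 4.3.3: filterByExpr (minimum count 10, total 15), TMM, robust quasi-likelihood fit with 1 coefficient per group (12 residual degrees of freedom), two-sided, threshold 0.05 after Benjamini-Hochberg adjustment. DESeq2 1.42.0, limma 3.58.1 (voom), RLE scaling, no filter, 2 groups only, a set term, fits within sets, a replicate block and leaving out each library were alternatives. CPM and log2 CPM (prior count 0.5) were computed from the deposited counts; figures used Python 3.11.15 and matplotlib 3.10.9. A fold against 0 used a floor of 3 counts over the group.

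The genes and lists were chosen with earlier results of these data known. By the rule for named genes all 10 are given in every library, other list genes where they passed the test in 1 of the 7 comparisons (at most 4 per list and comparison, by p), and for each of the 10 the 3 most correlated genes, leaving out predicted symbols. In the 7 comparisons, fold changes of the 10 genes are printed where the unadjusted p was under 0.05, besides bounds for Cnmd. Col2a1, Col9a1, Col10a1, Thbs4, Dcn, Scx, Runx2, Sp7, Col1a1 and Sost are outside that rule and were chosen after their values were seen. The fit was tested on simulated data. Deviations of same-numbered libraries, by the titles' replicate numbers, correlated in each pair at 0.152, 0.2 and 0.293 for CKO-YOUNG with CON-YOUNG and at 0.113, 0.194 and 0.275 for CON-YOUNG with YOUNG. Replicate 3 was the Malat1-high library of each of these groups, so pairing cannot be told apart from library set here. The main fit had no block, and the fit with a block is given as an alternative. In the other 5 comparisons at least 1 pair was at 0.1 or less. Symbols were matched to RefSeq names for 24964 of 26264, and for 10 of 10 cartilage genes.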

Additional observations from a re-analysis of the deposited data

How the results depend on the processing

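Counts of the 10 genes called were unchanged in 111 of 136 alternatives and moved in 25. For the test of any group, where 1 gene was called, 0 were called with no filter on low counts, 0 with a library set term, and 0 to 4 when a library was left out. Sox9 was kept without OLD replicate 2, YOUNG replicates 1, 2 or 3, or CON-YOUNG replicate 3. Without YOUNG replicate 3, Hapln1, Sox5 and Acan were called too, where 4125 of 17096 genes passed. Without CON-YOUNG replicate 3, Hapln1, Sox6 and Comp were, where 5422 of 17108 genes passed. In CKO-OLD against CKO-YOUNG the count of 0 became 2 within library set 3 (Sox9, Sox6), 3 with DESeq2 (Sox9, Sox5, Comp), 3 with only the 2 groups (Sox9, Hapln1, Sox6), 4 with a replicate block (Sox9, Hapln1, Sox6, Comp), and 0 to 1 with a library left out (Matn4 without CKO-YOUNG replicate 3). There deviations of same-numbered libraries did not go together (correlations -0.021, -0.037 and -0.071). Of all genes, 1995 of 16566 were called there with DESeq2 and 736 of 15128 with only the 2 groups. The block called 230 of 15128, and leaving out CKO-YOUNG replicate 3 called 2655 of 16957. In CKO-YOUNG against CON-YOUNG it became 1 within set 3 (Sox6), in CON-OLD-iBP against OLD 1 with DESeq2 (Sox9), and in CON-YOUNG against YOUNG 0 to 3 with a library left out (Hapln1, Sox6 and Comp without CON-YOUNG replicate 3). In that last fit 2924 of 17108 genes passed. The cause of these changes was not tested. Of the 224 alternatives for log2 fold changes, 208 kept direction and call, 14 were called where the reported one was not, and 2 turned, Acan to 1.23 and Chad to 0.79 in OLD against YOUNG without YOUNG replicate 3 (ranges over left-out libraries -12.45 to 1.23 and -12.09 to 0.79). The block changed no call of the 10 genes in the other 6 comparisons. Fits of 2 groups alone, with or without the block, tested 7 of the 10 in OLD against YOUNG. They tested 10 in CKO-OLD against CON-OLD-iBP and 9 in each other comparison.

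Counts over all genes moved more. Leaving out a library gave 0 to 2 genes called in OLD against YOUNG, 2 to 23 in CKO-YOUNG against CON-YOUNG, 0 to 48 in CKO-OLD against OLD, 0 to 1346 in CON-OLD-iBP against OLD, 2 to 512 in CKO-OLD against CON-OLD-iBP, 0 to 2655 in CKO-OLD against CKO-YOUNG, 0 to 2924 in CON-YOUNG against YOUNG, and 1369 to 5422 for any group. DESeq2 gave 40, 227, 180, 2055, 1421, 1995 and 2059 in the same order of 7 comparisons, where edgeR gave 0, 21, 1, 4, 213, 116 and 919. A library set term gave 0, 93, 4, 0, 2035, 6 and 0, the 2 groups alone 0, 4, 4, 30, 679, 736 and 1, the replicate block within those 2 groups 0, 0, 0, 2, 649, 230 and 0, and limma-voom 0, 65, 1, 46, 268, 253 and 553. With no filter they were 125 in CKO-OLD against CON-OLD-iBP and 2 in CKO-OLD against OLD. Within set 3 they were 9, 1113, 9, 142, 3100, 892 and 22, within set 1 63 in OLD against YOUNG, and within set 2 76 in CKO-YOUNG against CON-YOUNG. For any group edgeR gave 2977, and 681 with a set term. At a few counts per library, as for Cnmd, Chad and Acan in OLD and CKO-YOUNG, depth limits any fold.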
